A study of Mus musculus with 18 samples.

Results

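Promoter accessibility of 8 genes of the corticotropin-releasing hormone (CRH) system and of corticosteroid action was followed through the mouse central amygdala (CeA) and cortex. The genes were Crh, Crhbp, Crhr1, Crhr2, Nr3c1, Nr3c2, Fkbp5 and Sgk1. Every promoter window that carried 1 of these gene names was taken, which gave 12 of the 26065 distinct windows measured, with 4 windows for Sgk1, 2 for Crhr2 and 1 for each other gene. The windows were taken by gene name alone, but the genes were chosen with earlier results of these data known. None of the 12 windows overlapped another window, and all 12 passed the filter on low counts.

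CRH is a stress peptide made by neurons of the hypothalamus, the CeA and other forebrain areas, and it acts through the G protein-coupled receptors CRHR1 and CRHR2. CRH-binding protein holds the free peptide away from these receptors. Hypothalamic CRH starts the hormone cascade that ends in adrenal corticosteroids, which bind the mineralocorticoid receptor (Nr3c2) and the glucocorticoid receptor (Nr3c1) in neurons; Fkbp5 and Sgk1 are induced by the activated receptors, and FKBP5 in turn lowers the affinity of the glucocorticoid receptor for its hormone.

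The assay was ATAC-seq, in which the transposase Tn5 inserts sequencing adapters into open DNA, so that reads over a promoter measure its accessibility and not its RNA. All mice were C57BL/6J, 2 to 3 months old, and each of the 18 libraries was made from 50000 sorted nuclei. Somatostatin-positive (SOM+) nuclei were gated on a histone-bound GFP and came from mice labelled wild type, either fear-conditioned or control, from CeA and cortex, with 2 libraries in each of these 4 groups. Bulk nuclei, to which a DNA dye was added, came from mice whose treatment field says control, with Erbb4 deleted in SOM+ cells (KO, 3 libraries per region) and from wild-type (WT) mice with that same entry (2 libraries per region). Wild type was read from the sample titles of the bulk libraries, since their genotype field carries the KO entry as well. The dissection protocol names the prefrontal cortex where the tissue field says cortex, and it speaks of technical replicates of sorted nuclei, so that p-values measure the spread between libraries, which may be technical. The KO is labelled as made in SOM+ cells, whereas the bulk nuclei were not selected for them.

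Promoter read totals were 2648959 to 7727263 in CeA SOM+ libraries, 9452310 to 14668694 in cortex SOM+ libraries and 2751769 to 7939962 in bulk libraries. Open ribosomal protein promoters stood above closed olfactory receptor promoters by a median ratio of 17.4 to 34.8 in CeA SOM+, 50.4 to 71.5 in cortex SOM+ and 9.57 to 19.0 in bulk libraries. Y-linked promoters went against the labelled sex in 4 of the 10 bulk libraries. KO library 2 of both regions, labelled male, had 0 Y-linked counts, and WT library 1 of both regions, labelled female, had 251 in CeA and 639 in cortex. The bulk fits hold labelled sex as a term, and results that change without these 4 libraries are given both ways. The Erbb4 promoter differed by -0.23 ± 0.25 (log2, SE) in CeA KO against WT and by -0.32 ± 0.23 in cortex, and neither passed the test; a promoter window does not check a deletion made in SOM+ cells alone. Of 10 GABAergic markers, 10 were higher in SOM+ than in bulk nuclei averaged over regions (10 in cortex, 4 in CeA), where 30.6% of all windows were higher. Of 12 somatostatin neuron markers 3 were higher and 3 lower averaged over regions, 1 higher and 4 lower in CeA, and 7 higher and 3 lower in cortex. The defining marker Sst did not pass the test averaged over regions (0.03 ± 0.23, adjusted p = 0.926, edgeR), so the markers do not bear out the SOM+ label evenly. In bulk samples, fewer cells of a type and less accessibility per cell cannot be told apart, and between SOM+ and bulk the sort, the mouse line and the preparation differ together.

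Promoter sequences of 6 of the 8 genes were in the RefSeq table of build GRCm38.p6, in 11 entries; Crh and Nr3c1 had none. The 4 shown were chosen after their values and letters were seen. Crhbp and Fkbp5 had the largest differences between regions in SOM+ nuclei, and the 2 Sgk1 stretches belong to the windows compared as a ratio below; of the 3 starts inside window 4, only start 5 is shown, for the element it holds. Each stretch runs over the 250 bases before the transcription start, 5′ to 3′ on the gene's strand. Capitals mark matches, on either strand, to a GC box with the letters GGGCGG, to the letters of the box named CCAAT or to the hexamer of a glucocorticoid response element (AGAACA), and the 3 bases between a facing pair of such hexamers.
Crhbp, minus strand, chr13:95444832-95445081: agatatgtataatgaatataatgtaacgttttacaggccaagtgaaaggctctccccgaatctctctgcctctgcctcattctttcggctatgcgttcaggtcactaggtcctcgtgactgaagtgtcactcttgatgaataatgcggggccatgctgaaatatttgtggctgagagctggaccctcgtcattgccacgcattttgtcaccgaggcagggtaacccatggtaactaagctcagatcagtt
Fkbp5, minus strand, chr17:28486150-28486399: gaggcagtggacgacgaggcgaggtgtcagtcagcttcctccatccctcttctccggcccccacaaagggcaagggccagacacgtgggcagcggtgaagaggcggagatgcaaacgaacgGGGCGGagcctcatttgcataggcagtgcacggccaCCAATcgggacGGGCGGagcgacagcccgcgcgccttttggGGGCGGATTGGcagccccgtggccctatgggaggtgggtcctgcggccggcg
Sgk1, start 1 (window 1), plus strand, chr10:21881934-21882183: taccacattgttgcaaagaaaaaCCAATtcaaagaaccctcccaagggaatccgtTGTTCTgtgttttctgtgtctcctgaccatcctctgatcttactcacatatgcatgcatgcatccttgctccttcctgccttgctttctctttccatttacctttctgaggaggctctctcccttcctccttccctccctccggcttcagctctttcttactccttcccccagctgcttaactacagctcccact
Sgk1, start 5 (inside window 4), plus strand, chr10:21993640-21993889: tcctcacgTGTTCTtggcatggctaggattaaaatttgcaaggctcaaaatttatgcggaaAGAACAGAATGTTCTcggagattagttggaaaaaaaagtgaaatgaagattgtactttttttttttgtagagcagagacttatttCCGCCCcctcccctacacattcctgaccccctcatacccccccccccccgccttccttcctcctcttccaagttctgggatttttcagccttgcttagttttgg
The Crhbp stretch held none of these letters, nor those of a TATA box (TATAAA), a cAMP response element (TGACGTCA) or a homeodomain core (TAATTA). It had 9 CpG dinucleotides and 47.2% G and C. The Fkbp5 stretch held 3 GC boxes and 2 CCAAT boxes, 1 GC box touching 1 CCAAT box, with 23 CpG and 68.0% G and C. Over all 32851 promoters of the table the medians were 6 CpG and 52.4%, with a GC box in 32.7% and a CCAAT box in 33.8% of them.

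Sgk1, the serum- and glucocorticoid-induced kinase, is transcribed from several starts. The 4 windows lay 96488, 103920 and 110039 bases apart from the first, and the first 4 RefSeq starts have exactly these spacings; the last 2 starts, 111706 and 112482 bases from the first, fall inside the wider window 4. In the stretch before the fifth start, 2 hexamers face each other with 3 bases between them (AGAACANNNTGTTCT), beginning 189 bases before the start, the palindrome that receptor dimers are known to bind. That full element stood in 3 of the 32851 promoters (0.00913%), and at least 1 hexamer stood in 16.1%. A further hexamer and 1 GC box stood in the same stretch, which had 5 CpG and 44.8% G and C. The stretch before start 6, not shown, had 22 CpG and 70.4% G and C, with GC boxes and a TATA box. Reads over window 4 do not separate starts 4, 5 and 6. The stretch before the first start held 1 hexamer, 195 bases before the start, 1 CCAAT box and no GC box, with 2 CpG. A match of letters is a description and not a bound site.

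In build mm9, the windows spanned 2000 bases each, except Sgk1 window 4 with 4443. Crh lay on chr3:19594397-19596396, Crhbp on chr13:96213787-96215786 and Crhr1 on chr11:103993095-103995094. The 2 windows of Crhr2 lay on chr6:55066908-55068907 and chr6:55082011-55084010, and Nr3c2 and Fkbp5 lay on chr8:79425407-79427406 and chr17:28622095-28624094. Sgk1 windows 1 and 4 lay on chr10:21600990-21602989 and chr10:21711029-21715471.

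Levels are given as CPM, the count relative to the TMM-scaled library size. Per kilobase and as the mean of all 18 libraries, the Nr3c2 promoter had the highest level, 60.2 CPM per kb. Sgk1 window 4 (31.9), Fkbp5 (31.2) and Sgk1 window 1 (28.8) came next, all on the same scale. Crh (12.1), Crhbp (10.6), Crhr1 (10.5), Nr3c1 (9.15) and Crhr2 window 1 (7.25) followed, and Sgk1 windows 2 (3.84) and 3 (3.51) and Crhr2 window 2 (2.90) were lowest. The mineralocorticoid receptor promoter thus exceeded the glucocorticoid receptor promoter in these windows, by 4.28 to 6.07 times in CeA SOM+ and 4.83 to 6.56 times in cortex SOM+ libraries, and by 4.41 to 8.08 times in CeA bulk and 4.97 to 14.6 times in cortex bulk libraries.

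**Figure D1:**
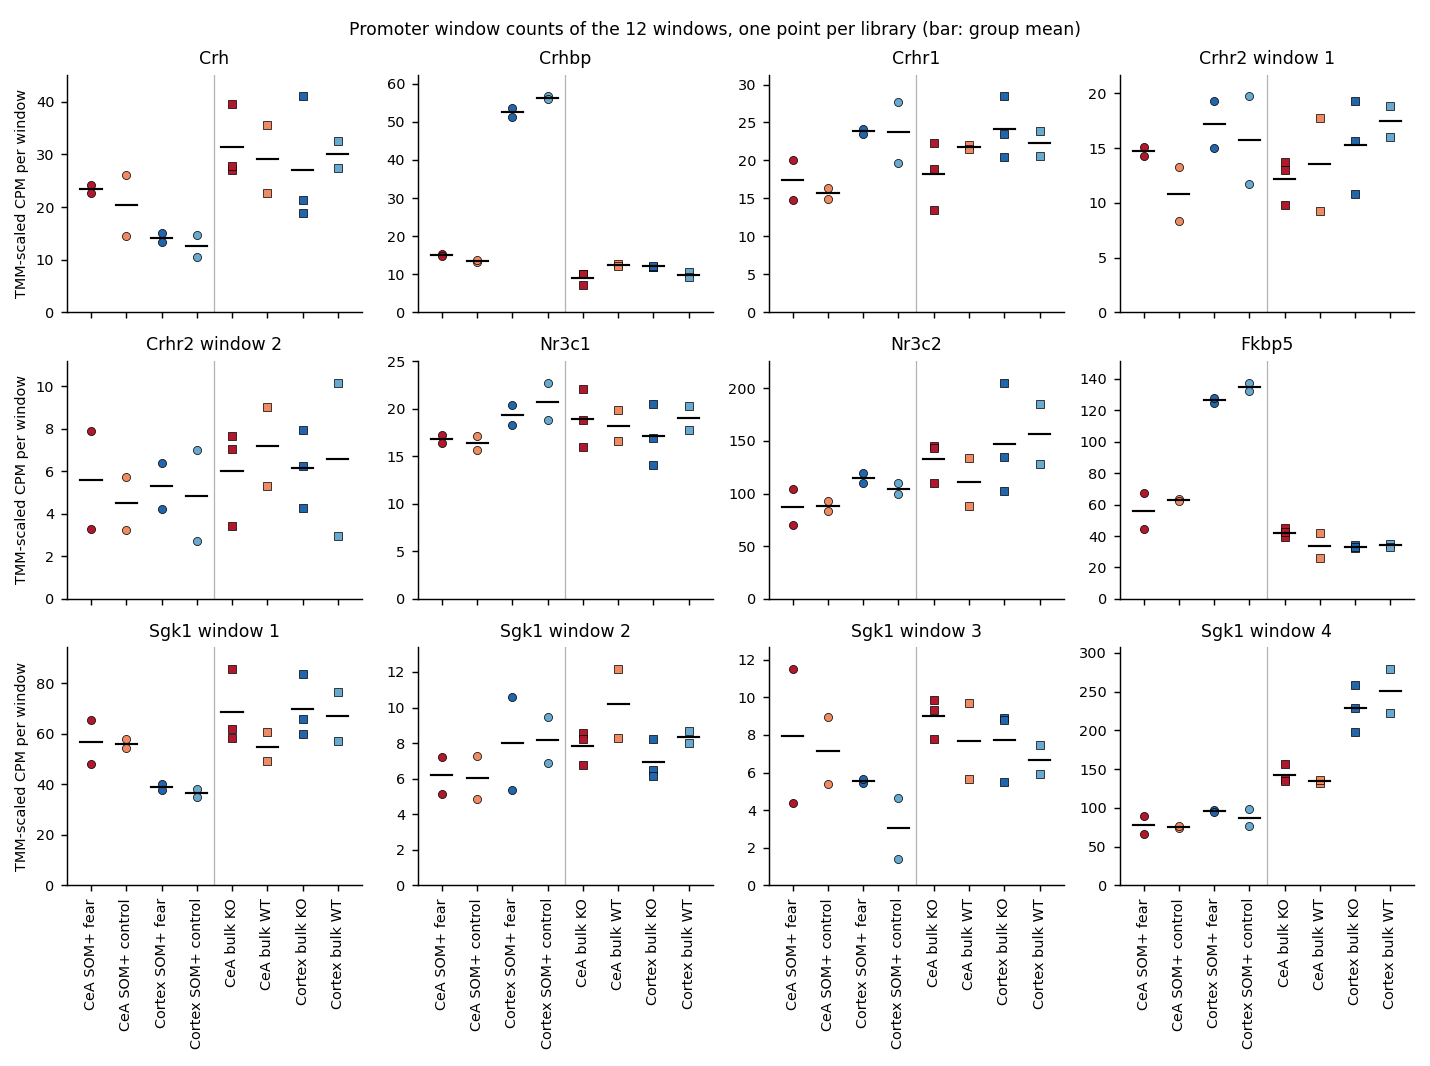
TMM-scaled CPM of each of the 12 promoter windows (y axis, from 0) in the 8 groups, 1 point per library, with a bar at the group mean; circles are SOM+ and squares are bulk libraries. Crhbp stood at 51.3 to 56.7 CPM in the 4 cortex SOM+ libraries and at 7.29 to 15.4 CPM in the other 14, and Fkbp5 stood at 125 to 138 CPM in the cortex SOM+ libraries and at 25.9 to 67.7 CPM in the other 14.

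The region comparison within SOM+ nuclei asks how the same genetically marked class differs between CeA and cortex, over fear and control libraries together. Crhbp and Fkbp5 were less accessible in CeA SOM+ nuclei, Crh and the first Sgk1 window were more accessible, and the promoters of both corticosteroid receptors did not pass the test. At an adjusted p under 0.05 in edgeR's quasi-likelihood test (called, below), 3 of the 12 windows were higher and 3 were lower in CeA; over all 25157 windows tested, 48.3% were called, 21.1% higher and 27.1% lower, so that 43.8% of the calls were higher (61.5% under total count scaling). The libraries of the regions did not overlap at 4 of the 12 windows, against 43.8% of all windows. The median difference of the 12 windows was -0.24 and that of all windows 0.04 (log2, CeA minus cortex). Promoter enrichment, given above, was lower in every CeA than in every cortex SOM+ library, and its part in these differences was not tested.

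Cell type markers moved with the region too. Of 12 somatostatin neuron markers 3 were higher and 7 lower in CeA SOM+ nuclei (median -1.13), with a mean level of 21.2 to 24.0 CPM in CeA SOM+ and 45.9 to 52.9 CPM in cortex SOM+ libraries. Of 15 CeA neuron markers 9 were higher and 1 lower (median 0.87), of 10 GABAergic markers 3 were higher and 5 lower, and of 12 oligodendrocyte markers 4 were higher and 2 lower, at 12.0 to 13.1 CPM in CeA SOM+ and 11.2 to 12.7 CPM in cortex SOM+ libraries. The 4 Y-linked windows tested were all higher in CeA (median 1.14), although each group held 1 library of each labelled sex. The part of the cell types in the member differences was not tested.

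Crh, the ligand, had 24.2 and 22.7 CPM in CeA SOM+ fear and 26.04 and 14.5 CPM in CeA SOM+ control libraries, against 15.1 and 13.3 CPM in cortex SOM+ fear and 14.7 and 10.5 CPM in cortex SOM+ control libraries. Of the 4 CeA libraries 3 lay above all cortex libraries, and CeA control 2 lay among them. The difference was 0.77 ± 0.18 (log2, SE; adjusted p = 0.000117, edgeR), with means of 21.9 ± 5.07 CPM in CeA and 13.4 ± 2.06 CPM in cortex (SD over 4 libraries).

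Crhbp, the binding protein that sequesters CRH and urocortin, ran the other way and had the largest difference of the 12 windows. Its level was 15.4 and 14.8 CPM in CeA SOM+ fear and 13.1 and 13.7 CPM in CeA SOM+ control libraries, against 51.3 and 53.6 CPM in cortex SOM+ fear and 56.7 and 55.9 CPM in cortex SOM+ control libraries. The groups did not overlap and the libraries of a region lay close together. The difference was -1.88 ± 0.16 (log2; adjusted p = 3.55e-28, edgeR), and it ranged from -1.91 to -1.66 over 13 other settings. Counts of Crhbp over Crh, 2 windows of equal length, gave 0.505 to 0.944 in the CeA SOM+ and 3.41 to 5.31 in the cortex SOM+ libraries, a ratio chosen after its values were seen and given without a test.

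Of the receptors, Crhr1, the main CRH receptor of the forebrain, had 20.0 and 14.8 CPM in CeA SOM+ fear and 14.9 and 16.4 CPM in CeA SOM+ control libraries, against 24.2 and 23.5 CPM in cortex SOM+ fear and 19.7 and 27.8 CPM in cortex SOM+ control libraries. The highest CeA library exceeded the lowest cortex library. The difference of -0.47 ± 0.18 passed (adjusted p = 0.0186, edgeR), but it passed in only 5 of the 13 other settings. It was lost under DESeq2, total count scaling and cyclic loess, and without CeA control 1, CeA control 2, CeA fear 2, cortex control 2 or cortex fear 2, with adjusted p between 0.0552 and 0.287. Crhr2, which prefers the urocortins, differed by -0.32 ± 0.19 at window 1 (95% interval -0.70 to 0.06) and by 0.09 ± 0.30 at window 2 (-0.50 to 0.69), and neither passed.

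Nr3c1, the glucocorticoid receptor, had 17.2 and 16.4 CPM in CeA SOM+ fear and 17.1 and 15.6 CPM in CeA SOM+ control libraries, against 20.4 and 18.2 CPM in cortex SOM+ fear and 22.8 and 18.8 CPM in cortex SOM+ control libraries. The regions did not overlap, yet the fitted difference was -0.22 (95% interval -0.57 to 0.13, adjusted p = 0.31, edgeR). Nr3c2, the mineralocorticoid receptor, had 104.8 and 70.4 CPM in CeA SOM+ fear and 92.9 and 83.5 CPM in CeA SOM+ control libraries, against 110.0 and 119.7 CPM in cortex SOM+ fear and 109.9 and 99.7 CPM in cortex SOM+ control libraries. Its regions overlapped, the difference was -0.27 (-0.57 to 0.04, adjusted p = 0.14), and it was called only without CeA fear 1 (-0.44, adjusted p = 0.00615); under cyclic loess the estimate was 0.0013.

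Fkbp5, the cochaperone of the glucocorticoid receptor, had 67.7 and 44.4 CPM in CeA SOM+ fear and 63.6 and 62.2 CPM in CeA SOM+ control libraries, against 125 and 128 CPM in cortex SOM+ fear and 132 and 138 CPM in cortex SOM+ control libraries. The lowest cortex library stood well above the highest CeA library. The difference was -1.08 ± 0.16 (log2; adjusted p = 7.38e-11, edgeR), with means of 59.5 ± 10.3 CPM in CeA and 131 ± 5.59 CPM in cortex (SD over 4 libraries).

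Window 1 of Sgk1, at the first start, had 65.5 and 48.0 CPM in CeA SOM+ fear and 54.2 and 57.9 CPM in CeA SOM+ control libraries, against 40.0 and 38.0 CPM in cortex SOM+ fear and 38.2 and 35.0 CPM in cortex SOM+ control libraries. It was higher in every CeA library (0.63 ± 0.15, adjusted p = 8.71e-05, edgeR). Window 4 holds starts 4, 5 and 6 together, of which start 5 carries the full response element. It had 89.9 and 65.8 CPM in CeA SOM+ fear and 74.3 and 76.2 CPM in CeA SOM+ control libraries, against 96.7 and 94.4 CPM in cortex SOM+ fear and 98.6 and 76.4 CPM in cortex SOM+ control libraries. These overlapped, with a difference of -0.21 (95% interval -0.50 to 0.09) that was called only without CeA fear 1 (-0.34, adjusted p = 0.0400). Window 3, with 12 to 70 reads per library, differed by 0.89 ± 0.29 (adjusted p = 0.00641), a call lost under cyclic loess (0.53) and without CeA control 1 (0.71), CeA fear 2 (0.54) or cortex control 2 (0.68). Window 2 differed by -0.34 (-0.85 to 0.17).

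As a ratio of counts per kb, Sgk1 window 1 over window 4 was 1.62 to 1.69 in the CeA SOM+ libraries, against 0.860 to 1.02 in the cortex SOM+ libraries. In bulk nuclei it was 0.826 to 1.22 in CeA, against 0.572 to 0.720 in cortex. The regions did not overlap in either kind of nuclei. This ratio too was chosen after its values were seen and carries no test; within a library it does not depend on the scaling.

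**Figure D2:**
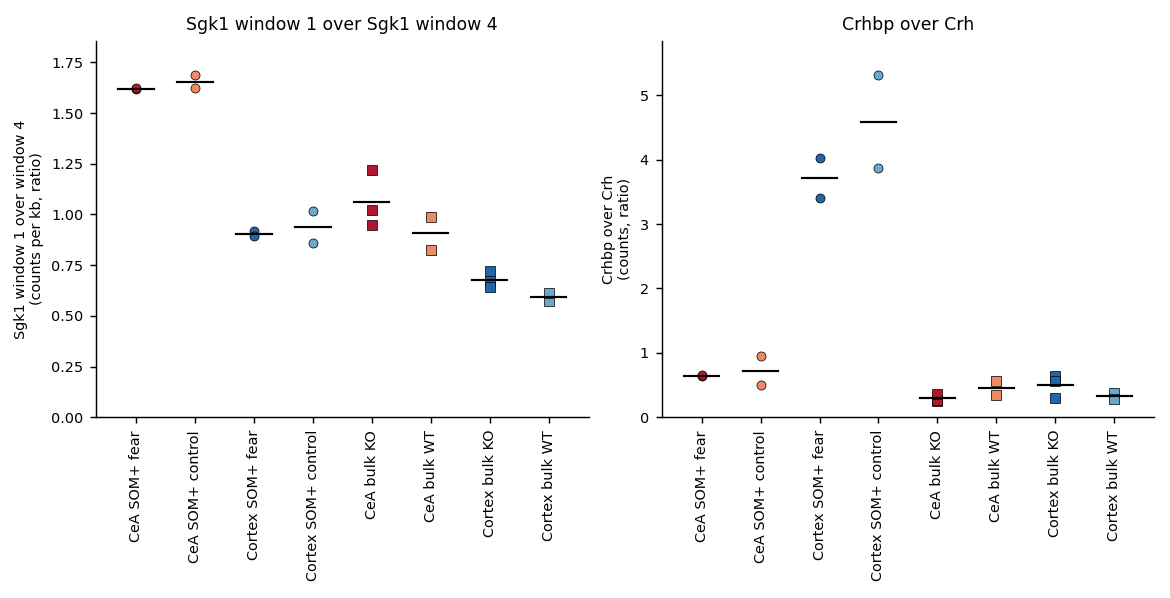
Ratio of Sgk1 window 1 to window 4 in counts per kb (left) and of Crhbp to Crh counts (right), 1 point per library in the 8 groups, bars at group means, both y axes from 0. The CeA libraries lie above the cortex libraries for Sgk1 in SOM+ (1.62 to 1.69 against 0.860 to 1.02) and in bulk nuclei (0.826 to 1.22 against 0.572 to 0.720), and Crhbp over Crh reaches 3.41 to 5.31 in cortex SOM+ libraries.

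The other genes of these pathways were counted in lists of CRH-family ligands and pituitary-adrenal axis genes, CRH receptor signalling, steroid metabolism, receptor chaperones and coregulators, and corticosteroid-induced targets. In CeA against cortex SOM+ nuclei, 3 of 15 ligand and axis genes were higher and 3 lower (median 0.02), against 0.04 over all windows. Ucn, encoding the CRH-like peptide urocortin, was lower in CeA (13.3 against 24.6 CPM, -0.85 ± 0.18, adjusted p = 1.75e-05, edgeR), and Ucn3, encoding a CRHR2-selective ligand, was higher (5.10 against 2.03 CPM, 1.29 ± 0.41, adjusted p = 0.00476). Of 20 signalling genes 2 were higher and 8 lower; the cAMP-responsive factor Crem was higher (251 against 159.6 CPM, 0.70 ± 0.16) and Atf1, a CREB relative, lower (54.5 against 127 CPM, -1.16 ± 0.16).

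Steroid metabolism had 0 of 12 genes higher and 2 lower, H6pd, which supplies NADPH to 11β-hydroxysteroid dehydrogenase type 1 (-1.54 ± 0.16), and Hsd11b2, which inactivates corticosterone (-0.75 ± 0.16). Of 20 chaperone and coregulator genes 3 were higher and 9 lower (median -0.38), with the corepressor Nrip1 higher (0.94 ± 0.15) and the acetyltransferase gene Ep300 lower (-1.25 ± 0.16). Of 24 corticosteroid-induced targets 3 were higher and 12 lower (median -0.41); Cebpd, a transcription factor, was higher (43.9 against 27.0 CPM, 0.77 ± 0.15) and Map3k6, a stress kinase, lower (37.4 against 74.6 CPM, -0.94 ± 0.15). These shares stand against 48.3% called among all windows, and nothing particular to the lists is read from them.

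In bulk nuclei, where all cell types are mixed, the same region comparison was made over KO and WT libraries together. Only Sgk1 window 4 was called among the 12 windows, against 16.9% of all 25196 windows (6.9% higher, 9.98% lower; 40.9% of the calls higher, and 56.7% under total count scaling), and it alone did not overlap, against 10.1% of all windows. It had 156, 137 and 135 CPM in CeA KO and 132 and 136 CPM in CeA WT libraries, against 198, 228 and 258 CPM in cortex KO and 222 and 279 CPM in cortex WT libraries. Every CeA library lay below every cortex library (-0.76 ± 0.14, log2, n = 5 each, adjusted p = 0.000795, edgeR). The call was lost without CeA WT 2 (-0.75, adjusted p = 0.0584) and without the 4 libraries with discordant Y-linked counts (-0.80, adjusted p = 0.213). Of the glutamatergic markers 8 of 10 were lower and of the GABAergic markers 7 of 10 were higher in CeA bulk; the mean level of the glutamatergic list was 23.1 to 29.8 CPM in CeA bulk and 51.4 to 66.7 CPM in cortex bulk libraries, with no window of it removed by the filter, and its part in the Sgk1 difference was not tested.

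The windows that differed between regions in SOM+ nuclei had small estimates in bulk. Crhbp had 10.1, 7.29 and 10.05 CPM in CeA KO and 12.8 and 12.3 CPM in CeA WT libraries, against 12.0, 12.0 and 12.3 CPM in cortex KO and 10.5 and 9.28 CPM in cortex WT libraries, a difference of -0.02 (95% interval -0.44 to 0.40). Fkbp5 had 39.1, 44.8 and 42.6 CPM in CeA KO and 41.9 and 25.9 CPM in CeA WT libraries, against 32.7, 34.2 and 33.0 CPM in cortex KO and 35.1 and 33.1 CPM in cortex WT libraries, a difference of 0.17 (-0.10 to 0.45). Both sets overlapped between regions. Crh had 39.6, 27.0 and 27.7 CPM in CeA KO and 22.7 and 35.5 CPM in CeA WT libraries, against 18.8, 21.3 and 41.0 CPM in cortex KO and 27.5 and 32.5 CPM in cortex WT libraries, with a difference of 0.10 (-0.30 to 0.50). The median difference was 0.02 over the 12 windows and 0.03 over all windows.

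The receptor promoters were likewise not called in bulk. Crhr1 had 13.4, 18.8 and 22.3 CPM in CeA KO and 22.0 and 21.6 CPM in CeA WT libraries, against 23.5, 28.5 and 20.5 CPM in cortex KO and 20.7 and 23.8 CPM in cortex WT libraries (-0.21, 95% interval -0.57 to 0.16). Nr3c1 had 18.8, 16.0 and 22.1 CPM in CeA KO and 19.9 and 16.6 CPM in CeA WT libraries, against 20.5, 16.9 and 14.1 CPM in cortex KO and 17.8 and 20.3 CPM in cortex WT libraries (0.06, -0.31 to 0.42). Both sets overlapped, and Nr3c1 had the smallest ratio of highest to lowest library of the 12 windows, with 14.1 to 22.8 CPM over all 18 libraries. Nr3c2 had 145, 109.8 and 143 CPM in CeA KO and 87.8 and 134 CPM in CeA WT libraries, against 102, 135 and 205 CPM in cortex KO and 128 and 185 CPM in cortex WT libraries. These overlapped too (-0.31, -0.65 to 0.04), and Nr3c2 was called only without cortex KO 1 (-0.40, adjusted p = 0.0263). Sgk1 window 1 had 85.7, 58.3 and 61.9 CPM in CeA KO and 49.2 and 60.7 CPM in CeA WT libraries, against 60.1, 65.9 and 83.6 CPM in cortex KO and 57.2 and 76.8 CPM in cortex WT libraries (-0.13, -0.42 to 0.15).

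In the pathway lists, CeA against cortex bulk gave 2 of 15 ligand and axis genes higher and 1 lower, 3 of 20 signalling genes higher and 3 lower, 6 of 20 chaperone and coregulator genes higher and 1 lower, and 1 of 24 corticosteroid-induced targets higher and 2 lower. These counts stand against 6.9% higher and 9.98% lower among all windows. Adcyap1, which encodes the neuropeptide PACAP, was lower (8.52 against 23.0 CPM, -1.43 ± 0.22). Hsp90aa1, which encodes the chaperone that holds the unliganded receptors, was higher (95.5 against 66.6 CPM, 0.52 ± 0.12), and Fkbp4, which encodes a cochaperone that competes with FKBP5, was lower (89.4 against 128 CPM, -0.50 ± 0.14). Among steroid metabolism genes, Hsd11b1, whose enzyme regenerates active corticosterone, was lower in CeA bulk (15.8 against 39.0 CPM, -1.29 ± 0.15, adjusted p = 4.07e-06, edgeR), 1 of 3 lower and 0 higher of 12.

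Whether the region difference itself differed between SOM+ control and bulk WT nuclei was tested in 1 fit over all libraries. Of the 12 windows 1 was called higher and 2 lower, against 24.7% of 25246 windows (9.46% higher, 15.2% lower; 38.4% of the calls higher, 49.6% under total count scaling and 53.8% under cyclic loess). Crhbp had the largest value, -2.41 ± 0.36 (log2, SOM+ minus bulk; adjusted p = 1.21e-05, edgeR), called in all 26 other settings. Fkbp5 had -1.12 ± 0.30 (adjusted p = 0.00509); the call was lost without CeA WT 1 (-0.65, adjusted p = 0.201) and without the 4 discordant libraries (-0.68, adjusted p = 0.279). Sgk1 window 1 had 0.90 ± 0.30 (adjusted p = 0.0230), a call lost without the 4 discordant libraries and without any 1 of CeA control 2, both cortex controls, both CeA WT libraries or cortex WT 2, with values of 0.71 to 1.02 and adjusted p of 0.0585 to 0.136. Crh, at 0.77 (95% interval -0.05 to 1.59), was called only under cyclic loess (1.12, adjusted p = 0.0437). Sgk1 window 4, at 0.68 (0.11 to 1.25, adjusted p = 0.0722), was called in 5 of 26 other settings, among them DESeq2 (adjusted p = 0.0279) and total count scaling (0.00692). Nr3c1, at -0.31 (-1.06 to 0.45), and Nr3c2, at 0.25 (-0.42 to 0.93), were not called.

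**Figure D3:**
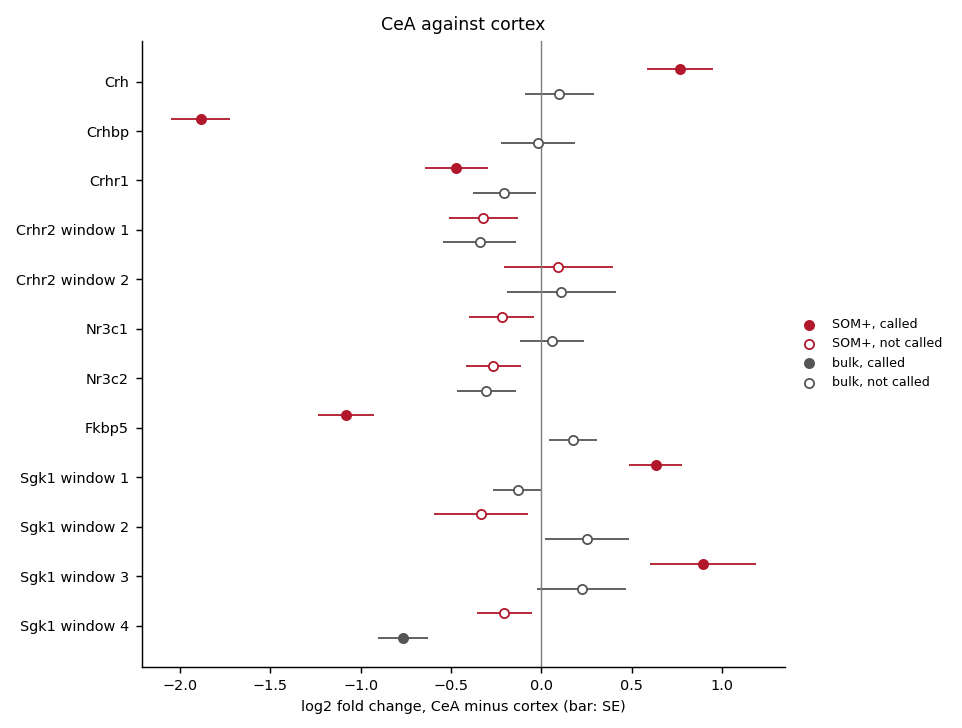
Log2 fold change, CeA minus cortex, of each of the 12 windows in SOM+ (red) and bulk nuclei (grey), with the SE as a bar; filled points passed an adjusted p under 0.05. Crhbp stands at -1.88 in SOM+ and -0.02 in bulk nuclei and Fkbp5 at -1.08 and 0.17, while Sgk1 window 4 stands at -0.21 in SOM+ and -0.76 in bulk nuclei.

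SOM+ control and bulk WT nuclei were then compared within each region. In CeA, 1 of the 12 windows was higher and 1 lower in SOM+, against 23.2% of all windows called (13.7% higher, 9.58% lower; 58.8% of the calls higher, and 40.7% under total count scaling). The libraries did not overlap at 5 of the 12 windows, against 62.4% of all windows. Fkbp5 had 63.6 and 62.2 CPM in CeA SOM+ control and 41.9 and 25.9 CPM in CeA bulk WT libraries, without overlap (0.86 ± 0.21, n = 2 each, adjusted p = 0.00306, edgeR), and it was not called without WT 2 (0.53, adjusted p = 0.174). Sgk1 window 4 had 74.3 and 76.2 CPM in CeA SOM+ control and 132 and 136 CPM in CeA bulk WT libraries (-0.84 ± 0.20, adjusted p = 0.00248). That call was lost without SOM+ control 1 (adjusted p = 0.0755), without WT 1 (0.0739) and without the 4 discordant libraries (0.120). Crhbp, with 13.1 and 13.7 CPM in SOM+ control and 12.8 and 12.3 CPM in bulk WT libraries, differed by 0.10 (95% interval -0.44 to 0.63). Crh, with 26.04 and 14.5 CPM in SOM+ control and 22.7 and 35.5 CPM in bulk WT libraries, differed by -0.50 (-1.09 to 0.09), and Sgk1 window 1, with 54.2 and 57.9 CPM in SOM+ control and 49.2 and 60.7 CPM in bulk WT libraries, by 0.04 (-0.39 to 0.46). The median was -0.34 over the 12 windows and -0.06 over all windows.

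In cortex, 2 of the 12 windows were higher and 5 lower in SOM+, against 62.1% of all windows called (31.5% higher, 30.6% lower). The libraries did not overlap at 7 of the 12 windows, against 80.8% of all windows. Crhbp had 56.7 and 55.9 CPM in cortex SOM+ control and 10.5 and 9.28 CPM in cortex bulk WT libraries (2.50 ± 0.25, adjusted p = 9.98e-11, edgeR). Fkbp5 had 132 and 138 CPM in cortex SOM+ control and 35.1 and 33.1 CPM in cortex bulk WT libraries (1.98 ± 0.21, adjusted p = 3.48e-10). Neither pair of groups overlapped, and cortical SOM+ nuclei stood above the other 14 libraries for both promoters.

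Crh ran the other way in cortex, with 14.7 and 10.5 CPM in SOM+ control and 27.5 and 32.5 CPM in bulk WT libraries (-1.27 ± 0.29, adjusted p = 0.000221, edgeR). Sgk1 was lower in cortical SOM+ nuclei at window 1, with 38.2 and 35.0 against 57.2 and 76.8 CPM (-0.86 ± 0.21, adjusted p = 0.000463), and at window 4, with 98.6 and 76.4 against 222 and 279 CPM (-1.52 ± 0.20, adjusted p = 3.12e-08), SOM+ control before bulk WT. These 5 calls in Crhbp, Fkbp5, Crh and the 2 Sgk1 windows held in all 26 other settings. Sgk1 window 3 (-1.12 ± 0.48, adjusted p = 0.0400, edgeR) kept its call in 20 of the 26. In the settings without the call, its value was -0.34 without SOM+ control 2, -0.94 without WT 1 and -1.28 without WT 2. It was -0.95 without the 4 discordant libraries, -1.02 with sex from Y-linked counts and -0.75 under cyclic loess. Nr3c2 (-0.56 ± 0.23, adjusted p = 0.0356) kept its call in 21, and lost it with no sex term, with sex from Y-linked counts, and without either SOM+ control library or WT 2 (-0.41 to -0.66). Crhr1, both Crhr2 windows, Nr3c1 and Sgk1 window 2 were not called, with Nr3c1 at 0.13 (95% interval -0.39 to 0.65).

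Averaged over regions, 2 windows were higher (Fkbp5, 1.42 ± 0.15; Crhbp, 1.30 ± 0.18) and 4 lower in SOM+ (Sgk1 window 4, -1.18 ± 0.14; Crh, -0.88 ± 0.20; Nr3c2, -0.43 ± 0.17; Sgk1 window 1, -0.41 ± 0.15), against 61.1% of all windows called (50.0% of the calls higher, and 39.0% under total count scaling). The last 2 of these 4 were lost with sex from Y-linked counts and without CeA SOM+ control 1, cortex SOM+ control 1 or cortex WT 2, and Nr3c2 also without CeA WT 2, with values of -0.32 to -0.39. Glutamatergic markers, 0 of 10 higher and 9 of 10 lower in cortex SOM+ against bulk, had a mean level of 17.8 to 22.5 CPM in cortex SOM+ and 51.4 to 66.7 CPM in cortex bulk libraries. The mean level of 12 oligodendrocyte markers was 11.2 to 12.7 CPM in cortex SOM+ and 22.8 to 32.5 CPM in cortex bulk libraries, 1 higher and 9 lower. The part of these cell types in the member differences was not tested. Promoter enrichment was 24.0 to 33.75 in CeA SOM+ control and 10.2 to 14.8 in CeA bulk WT libraries. It was 55.8 to 71.5 in cortex SOM+ control and 9.57 to 12.9 in cortex bulk WT libraries. The part of enrichment in the differences between SOM+ and bulk nuclei was not tested either. Among corticosteroid-induced targets 11 of 24 were higher and 6 lower in cortical SOM+ nuclei; the phosphatase gene Dusp1 was higher (186 against 43.5 CPM, 2.09 ± 0.20) and Tsc22d3, which encodes the glucocorticoid-induced leucine zipper, lower (32.9 against 83.8 CPM, -1.34 ± 0.22). Of the chaperones and coregulators 12 of 20 were higher and 4 lower. These list counts in cortex stand against 31.5% higher and 30.6% lower among all windows. H6pd (122 against 26.02 CPM, 2.23 ± 0.20) and Ucn (25.6 against 6.52 CPM, 1.97 ± 0.35) were higher in cortical SOM+ nuclei, and Hsd11b1 was lower (12.1 against 39.1 CPM, -1.69 ± 0.28). In CeA, 3 of the 24 targets were higher and 4 lower, against 13.7% higher and 9.58% lower among all windows.

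**Figure D4:**
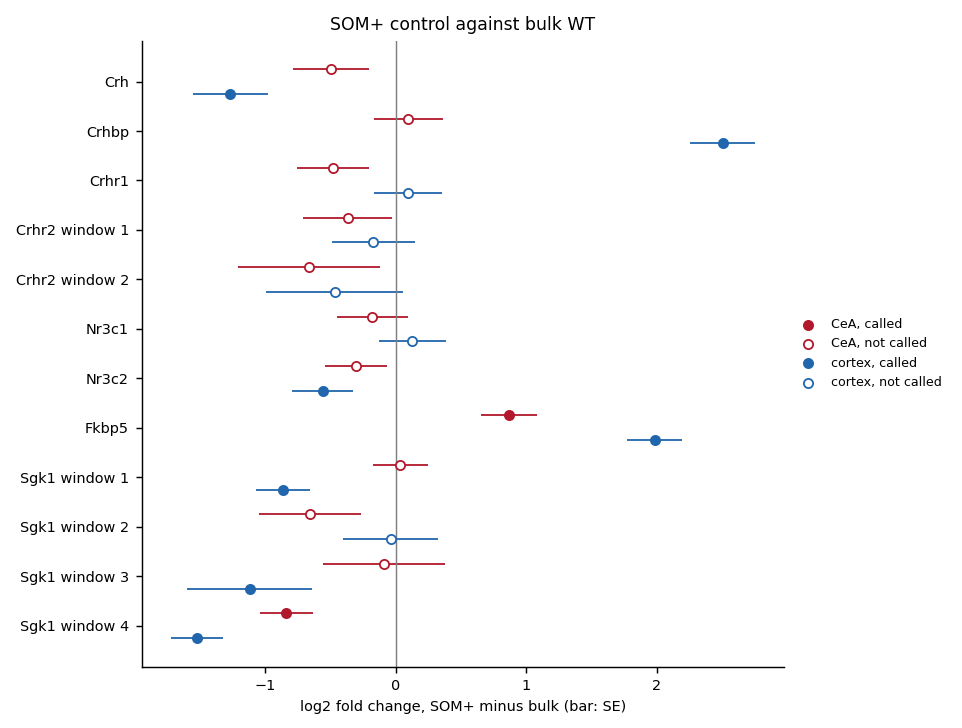
Log2 fold change, SOM+ control minus bulk WT, of each of the 12 windows in CeA (red) and cortex (blue), with the SE as a bar; filled points passed an adjusted p under 0.05. Crhbp stands at 0.10 in CeA and 2.50 in cortex, Fkbp5 at 0.86 and 1.98, and Sgk1 window 4 at -0.84 and -1.52.

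Fear conditioning, in which mice learn to expect a shock, was compared with control mice in SOM+ nuclei of each region. No member window was called in CeA, in cortex, averaged over regions or in the interaction with region, and neither was any of the 25157 windows (0% called in each). In edgeR, 598 windows in CeA, 288 in cortex, 530 averaged and 371 in the interaction had an unadjusted p under 0.05; DESeq2 and limma-trend called 0 windows as well. With 2 libraries per group, the 95% intervals of the members were wide. Crh had 24.2 and 22.7 CPM in CeA fear and 26.04 and 14.5 CPM in CeA control libraries, which overlap, and its interval reached from -0.31 to 0.71 (log2). Fkbp5, the corticosteroid-induced cochaperone, had 67.7 and 44.4 CPM in CeA fear and 63.6 and 62.2 CPM in CeA control libraries (-0.57 to 0.31).

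Crhbp had 15.4 and 14.8 CPM in CeA fear and 13.1 and 13.7 CPM in CeA control libraries (0.20 ± 0.26), but 51.3 and 53.6 CPM in cortex fear and 56.7 and 55.9 CPM in cortex control libraries (-0.09 ± 0.20). Neither pair overlapped, and the difference between the regional effects was 0.29 (-0.35 to 0.94). In all, 2 of the 12 windows did not overlap in CeA (21.8% of all windows) and 4 of 12 did not in cortex (26.6%). With both regions pooled, 0 of 12 did not (0.648%). Region was not removed there, so the pooled check cannot decide for windows that differ between regions, such as Crhbp and Fkbp5. The only member with an unadjusted p under 0.05 was the sparse Sgk1 window 3 in cortex, with 5.46 and 5.67 CPM in fear and 4.64 and 1.42 CPM in control libraries (0.87 ± 0.41, edgeR). The estimates of the 12 windows lay between -0.13 and 0.42 in CeA (median 0.07, and 0.01 over all windows) and between -0.09 and 0.87 in cortex (median 0.11, and 0.00 over all windows). For the corticosteroid receptors the intervals in CeA were -0.47 to 0.59 for Nr3c1 and -0.41 to 0.45 for Nr3c2, and in cortex -0.56 to 0.38 and -0.27 to 0.56. The pathway lists had 0 called genes in every fear comparison.

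KO of Erbb4, the neuregulin receptor of many interneurons, was compared with WT in bulk nuclei. No member window was called in CeA, in cortex, averaged over regions or in the interaction, nor was any of the 25196 windows (0% called in each). In edgeR, 745 windows in CeA, 823 in cortex, 872 averaged and 590 in the interaction had an unadjusted p under 0.05; DESeq2 and limma-trend called 0 windows too. Fkbp5 in CeA was the only member with an unadjusted p under 0.05 (0.55 ± 0.23, edgeR). It had 39.1, 44.8 and 42.6 CPM in CeA KO and 41.9 and 25.9 CPM in CeA WT libraries, so that WT 1 lay within the KO range and WT 2 below it. The estimate ranged from 0.085 to 0.70 over 18 other settings. It was 0.085 without CeA WT 2, 0.31 with no sex term and 0.28 with sex from Y-linked counts. In bulk, the WT 1 libraries are the only ones labelled female, so the sex term is estimated from WT libraries whose Y-linked counts go against that label.

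With both regions pooled, 0 of 12 windows did not overlap between KO and WT (0.663% of all windows). Region was not removed there either, so the pooled check cannot decide for a window that differs between regions. Crhbp was the 1 member of 12 whose KO and WT libraries did not overlap in each region (28.9% of all windows in CeA, 10.9% in cortex), in opposite directions. It had 10.1, 7.29 and 10.05 CPM in CeA KO and 12.8 and 12.3 CPM in CeA WT libraries (-0.38, 95% interval -1.08 to 0.33), and 12.0, 12.0 and 12.3 CPM in cortex KO and 10.5 and 9.28 CPM in cortex WT libraries (0.36, -0.34 to 1.05). The difference between the regional effects was -0.73 ± 0.41 (adjusted p = 0.968, edgeR). In cortex, Crh had 18.8, 21.3 and 41.0 CPM in KO and 27.5 and 32.5 CPM in WT libraries, and Nr3c2 had 102, 135 and 205 CPM in KO and 128 and 185 CPM in WT libraries. Cortex KO 3 was the highest library for both. Without it both were called lower in KO, Crh at -0.79 (adjusted p = 0.0467, edgeR) and Nr3c2 at -0.66 (adjusted p = 0.0432). With it the estimates were -0.38 and -0.35. The share of all windows called without cortex KO 3 is not given here, so nothing particular to Crh and Nr3c2 is read from these calls. The estimates lay between -0.38 and 0.55 in CeA (median 0.05, and 0.02 over all windows). In cortex they lay between -0.38 and 0.74 (median -0.00, and 0.02 over all windows). With the sex term, the estimate of Crhr2 window 2 was 0.53 in CeA and 0.74 in cortex. Its mean level was nevertheless lower in KO than in WT (6.04 against 7.17 CPM in CeA, 6.15 against 6.56 CPM in cortex). The pathway lists had 0 called genes in every KO comparison.

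**Figure D5:**
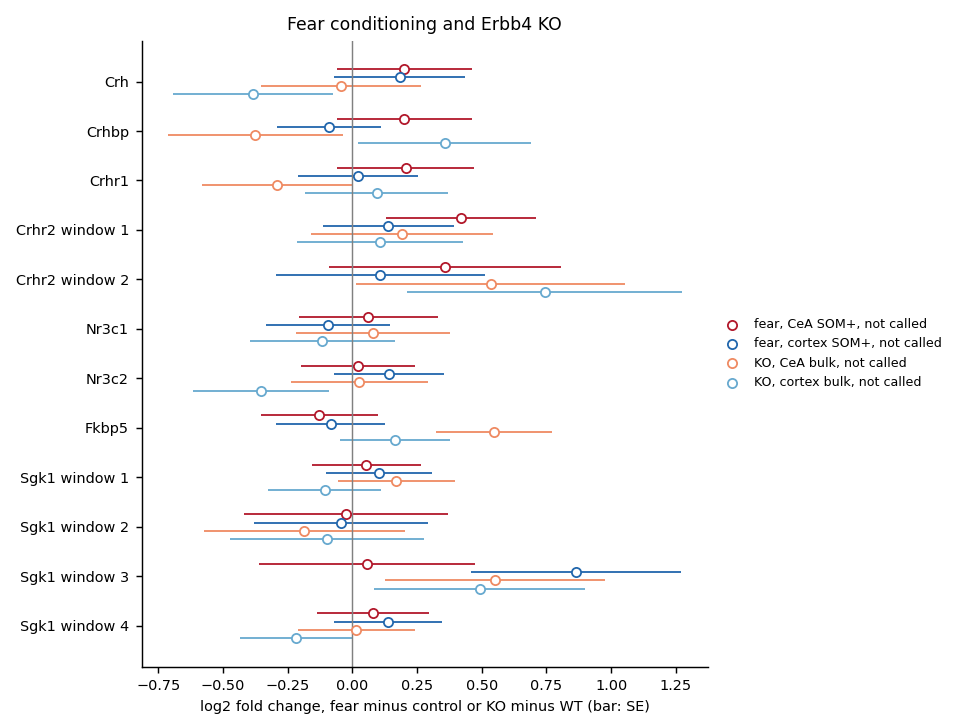
Log2 fold change of each of the 12 windows, fear minus control in SOM+ nuclei and KO minus WT in bulk nuclei, for CeA and cortex, with the SE as a bar; all points are open because none passed an adjusted p under 0.05. The largest estimate is that of Sgk1 window 3 for fear in cortex, 0.87 ± 0.41.

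For each gene, the genes whose promoter levels ran most alike over the 18 libraries were named, by Pearson's r of log2 CPM over 21018 windows, at the window with the highest mean count. These values are descriptions, since the libraries share depth, sort and region groups. Crhbp was most like Dlx1, a GABAergic lineage factor (r = 0.976), then Mrps23 (0.974) and Cdt1 (0.972). Fkbp5 was most like Rhot1 (0.984), Crh like Gdnf (0.960), Nr3c2 like Slc19a2 (0.964) and Sgk1 window 4 like C1ql3 (0.978). The promoters that varied little had weaker partners, Crhr1 with Mt3 (0.814), Crhr2 window 1 with Slk (0.741) and Nr3c1 with Defb47 (0.735).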

How the data were processed

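The deposited values were counts of ATAC-seq reads per promoter window of mm9, 1 column per library, with no normalization by the authors, judged from the values. Tools listed in the submitters' processing notes are Bowtie2, MACS2, Picard 1.88, Trimmomatic 0.32 and bcl2fastq 2.16.0.10, without their order. The counting program, the Tn5 offset and duplicate handling: not given in the sources used here. Of 26728 entries, 663 that repeated a window were left out. Groups came from the sample titles.

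Counts were tested with edgeR 4.0.16 (R 4.3.3) using its quasi-likelihood F test, TMM scaling and a filterByExpr filter by group (minimum count 10, minimum total 15), in 3 fits: SOM+ libraries (4 residual degrees of freedom), bulk libraries (5) and all 18 (9), the last 2 with labelled sex as a term. Benjamini-Hochberg adjustment ran over all windows of each of the 14 comparisons, with a threshold of 0.05. The SE was taken from the fold change and its F value. CPM levels use TMM factors over all 18 libraries and no sex term, whereas the bulk and all-library fits hold labelled sex. A fold change can therefore differ from the ratio of levels, also in direction. Log2 CPM for likeness used a prior count of 2. The fits were tested on simulated data. Alternatives were DESeq2 1.42.0, total count scaling, cyclic loess with limma 3.58.1, no filter, no sex term, a replicate block and each library left out, and, chosen after seeing the data, sex from Y-linked counts and leaving out the 4 discordant libraries.

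The members, gene lists and ratios were chosen with earlier results of these data known. Named genes were all member windows, up to 3 called genes with the smallest p per direction of each list, and the 3 genes most alike to a member. Sequences were matched by symbol.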

Additional observations from a re-analysis of the deposited data

Results flagged for a closer look

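The region difference, CeA minus cortex, differed between SOM+ control and bulk WT nuclei for 3 of the 12 member windows. The test was the interaction of region and kind of nuclei (edgeR, 2 libraries per group), which called 24.7% of all 25246 windows. The interaction was -2.41 for Crhbp, -1.12 for Fkbp5 and 0.90 for Sgk1 window 1 on the log2 scale, SOM+ minus bulk. Crhbp kept its call in every other setting, whereas Fkbp5 and Sgk1 window 1 lost theirs in some, as given above. Y-linked promoters, outside the comparisons, had 251 counts in CeA bulk WT 1 and 639 counts in cortex bulk WT 1, both labelled female, whereas the 4 SOM+ libraries labelled female had 0. No group held the 4 libraries that the test for a single outlying library needs.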

How the results depend on the processing

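Of 168 window results over the 14 comparisons, 25 were called, and 14 of these kept the call under every alternative. No called value changed sign; 47 calls were lost and 16 gained among 3108 alternative values, 32 of the lost ones with 1 library left out. Under total count scaling the median of all windows in CeA against cortex SOM+ moved to 0.26, against 0.04 under TMM, and the percentage of all calls in the higher direction to 61.5%, against 43.8%. In SOM+ against bulk that scaling moved the median of all windows to -0.22 in CeA and -0.31 in cortex, against -0.06 and -0.07. The number of member windows called moved by over 1.5 times as follows. In CeA against cortex bulk, 1 was called; 0 were without the 4 Y-discordant libraries, and 0 to 2 with 1 library left out. In KO against WT in cortex, 0 were called and 0 to 2 with 1 library left out, 2 without cortex KO 3. In SOM+ against bulk in CeA, 2 were called; 1 was without the 4 Y-discordant libraries, and 1 to 2 with 1 library left out. In the region difference, 3 were called; 5 were under cyclic loess with limma-trend, 1 was without the 4 Y-discordant libraries, and 1 to 4 with 1 library left out. Apart from left-out libraries, the cause was not tested. Same-numbered libraries correlated by 0.0576 (CeA) and 0.173 (cortex) between fear and control. Between the regions they correlated by 0.116 (control) and 0.0815 (fear) in SOM+, and by 0.365 (WT) and -0.199 to 0.252 (KO) in bulk. Between KO and WT they correlated by -0.212 and -0.308 in CeA and by 0.405 and -0.196 in cortex. Differently numbered libraries also correlated, cortex KO 3 by 0.489 with cortex WT 2 and by -0.489 with cortex WT 1. In SOM+ the numbers are the labelled sexes, and in bulk the same numbers had discordant Y-linked counts in both regions; whether they mark shared animals is not given. With a replicate block the member counts were the same as without it, 6 in CeA against cortex SOM+. Window counts of 10 to 86 limit Sgk1 windows 2 and 3 and Crhr2 window 2.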
